A study of Mus musculus with 12 samples.

Results

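The genes described here are 10 secreted antagonists of Wnt signalling, Sfrp1, Sfrp2, Sfrp5, Frzb, Wif1, Dkk1, Dkk2, Dkk3, Dkkl1 and Sostdc1. The genes were listed by name as a family, with earlier results of these data known. They are 10 of the 17853 genes measured and hold 68 of the 221205 exon probe sets that carry a single gene symbol. Their levels were followed in 4 populations of cells sorted from back skin epidermis on 12 exon arrays, 3 biological replicates per population. The mice were female and in telogen, when the hair follicles rest. The populations were Gata6+Itga6- cells, Gata6+Itga6+ cells, CD34+ cells (which are Itga6+ and Gata6-) and the remaining basal cells (Itga6+, with neither Gata6 nor CD34). All mice, those behind the Gata6- populations included, had a C57BL6/CBA strain background and carried a Gata6-mtomato reporter, and they were matched for age and sex. Itga6 is an integrin chain that anchors basal cells, and CD34 is a surface marker of bulge stem cells in the hair follicle. The labels give neither the age, nor what drives the reporter, nor whether a replicate is 1 mouse or a pool, so p-values measure only the spread between these samples.

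Wnt proteins signal by joining a Frizzled receptor to the co-receptors Lrp5 and Lrp6, which frees beta-catenin to act with TCF/LEF factors in the nucleus. The Sfrp proteins, Frzb and Wif1 bind Wnt proteins outside the cell. Dkk1 and Dkk2 bind Lrp5 and Lrp6 together with the Kremen receptors, and Sostdc1 binds Lrp co-receptors and also BMP ligands. In the hair follicle Wnt activity starts the growth phase, and resting bulge stem cells are known for expressing Wnt inhibitors.

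Promoter sequence from RefSeq, build GRCm38.p6, was at hand for 7 of the 10 genes, but not for Sfrp1, Dkk3 and Sostdc1. The 250 bases before the start of Dkk1 (chr19:30549497-30549746, minus strand), Sfrp5 (chr19:42202253-42202502, minus strand) and Wif1 (chr10:121033754-121034003, plus strand) are shown 5′ to 3′ because Dkk1 held the TCF/LEF letters, Sfrp5 the GATA letters most often and Wif1 neither. Capitals mark matches to the TCF/LEF motif (CTTTG followed by AA, AT, TA or TT) or to the GATA motif (A or T, then GATA, then A or G), searched on both strands.
Dkk1: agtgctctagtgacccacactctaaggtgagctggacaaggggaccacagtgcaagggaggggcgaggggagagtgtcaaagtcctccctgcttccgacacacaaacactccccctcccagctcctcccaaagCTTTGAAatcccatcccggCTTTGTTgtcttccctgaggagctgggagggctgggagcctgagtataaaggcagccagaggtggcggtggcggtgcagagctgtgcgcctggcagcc
Sfrp5: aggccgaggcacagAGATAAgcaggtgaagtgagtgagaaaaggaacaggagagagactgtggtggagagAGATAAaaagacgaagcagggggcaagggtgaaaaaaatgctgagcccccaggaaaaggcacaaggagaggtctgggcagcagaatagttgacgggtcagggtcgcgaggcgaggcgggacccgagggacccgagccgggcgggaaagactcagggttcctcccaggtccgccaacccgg
Wif1: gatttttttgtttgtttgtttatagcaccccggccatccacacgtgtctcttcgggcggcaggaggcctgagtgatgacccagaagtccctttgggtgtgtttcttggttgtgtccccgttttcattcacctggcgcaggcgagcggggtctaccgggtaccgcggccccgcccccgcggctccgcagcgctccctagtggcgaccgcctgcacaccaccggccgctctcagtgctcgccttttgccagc
Dkk1 held 2 TCF/LEF matches, which begin at -117 and -98 counted from the start of the gene, and 14.8% of 32851 promoters of this length held at least 1. Sfrp5 held 2 GATA matches and Frzb 1, and 26.5% of all promoters held at least 1. Sfrp2, Dkk2, Dkkl1 and Wif1 held no match to either motif. These matches are letters in a window and say nothing of binding.

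A level is log2(intensity + 1), and a gene's level is the median of its probe sets. A level of 2.46, the 95th percentile of the population means of 1144 olfactory and vomeronasal receptor genes, is called here the level of silent genes. A gene was called where limma gave an adjusted p (Benjamini-Hochberg, all genes) under 0.05. Where the lower mean lay under 2.46 the fold is taken against that level and written as at least. Levels of different genes or probe sets are not compared, because each probe has its own brightness. In sorted bulk samples, fewer cells of a type and less RNA per cell cannot be told apart. Array medians of intensity lay between 4.00 and 4.62 and upper quartiles between 12.2 and 17.8. In replicates 1 to 3 the upper quartiles were 13.3, 15.7 and 13.3 in Gata6+Itga6- and 16.0, 15.9 and 16.9 in Gata6+Itga6+ cells. They were 13.9, 15.1 and 17.8 in CD34+ and 12.2, 12.6 and 16.2 in remaining basal cells. Replicates correlated at r = 0.935 to 0.957 across genes, which are not independent replicates. Mean Gata6 levels were 5.84 in Gata6+Itga6-, 4.39 in Gata6+Itga6+, 2.84 in CD34+ and 2.73 in remaining basal cells, so both Gata6- populations were still over the level of silent genes. Itga6 was lowest in Gata6+Itga6- cells but not near silent there, at 6.02 ± 0.31, against 7.28 ± 0.13 in Gata6+Itga6+, 6.76 ± 0.40 in CD34+ and 7.67 ± 0.44 in remaining basal cells. The highest Gata6+Itga6- array (6.36) nearly met the lowest CD34+ array (6.37). Cd34 was at 7.95 in CD34+ cells and at 1.96 or less elsewhere. Of 10 bulge markers, 7 were over the level of silent genes in Gata6+Itga6-, 5 in Gata6+Itga6+, 10 in CD34+ and 4 in remaining basal cells.

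Of the 10 antagonists, 1 was over the level of silent genes in Gata6+Itga6- cells, 2 in Gata6+Itga6+ cells, 3 in CD34+ cells and 2 in remaining basal cells. By the gene median, Sostdc1 was over it in every population, Sfrp1 in all but Gata6+Itga6- cells and Dkk3 in CD34+ cells alone. The gene medians of the other 7 lay under it in every population, as did those of 8745 of all 17853 genes. For single populations the share over all genes was not counted. Each of the 3 measured genes had its own order of populations: Sfrp1 was highest in CD34+ cells and lowest in Gata6+Itga6- cells, Dkk3 was high in CD34+ cells only, and Sostdc1 was highest in Gata6+Itga6+ cells. With the stricter 99th percentile of the receptor genes, 3.51, Sfrp1 no longer counted in Gata6+Itga6+ cells and the other counts stayed as they were.

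**Figure D1:**
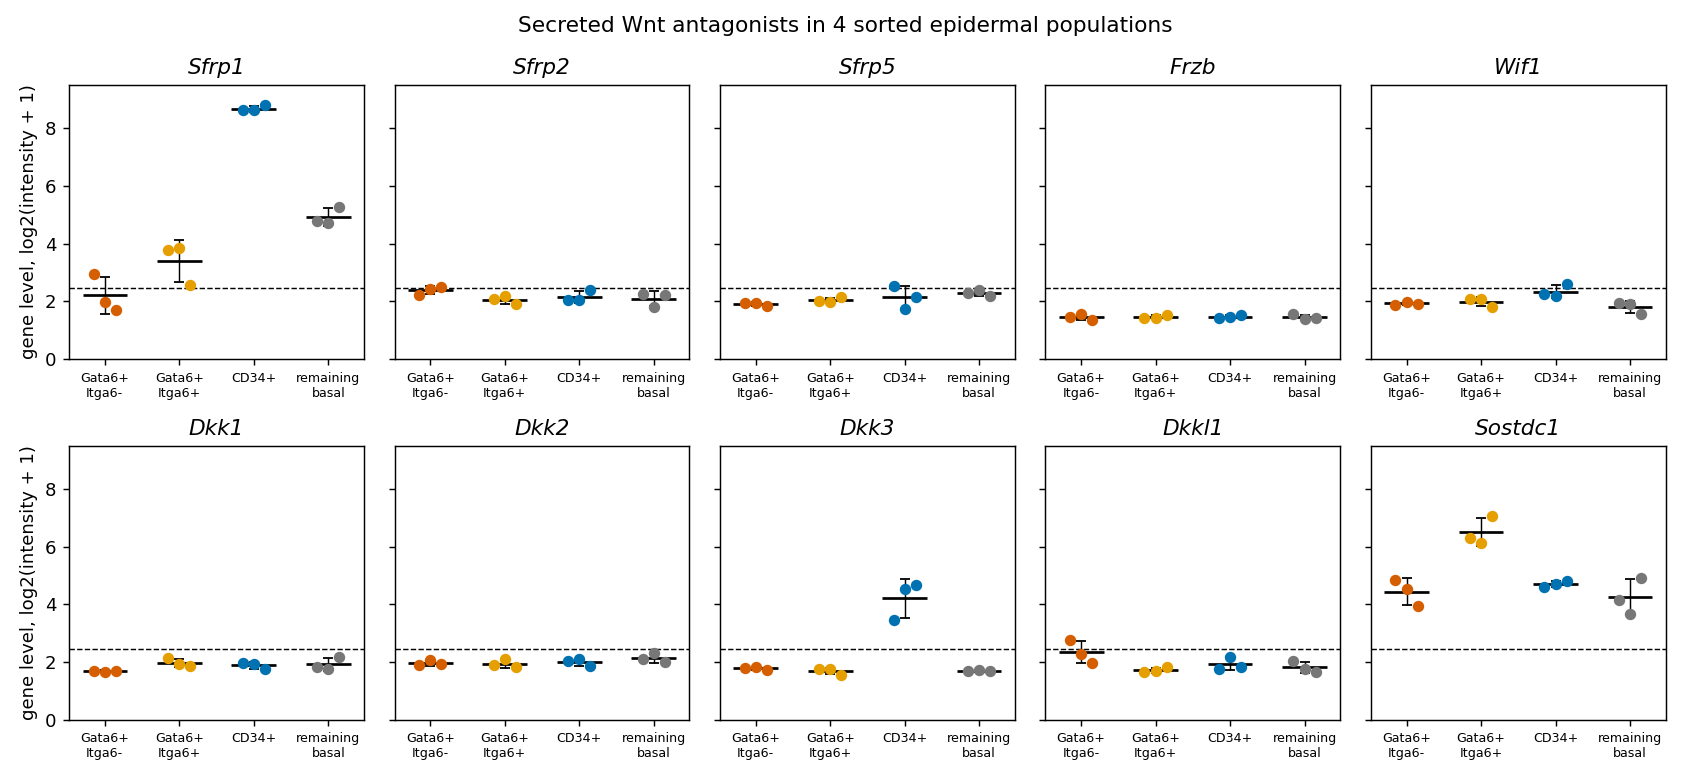
Gene level, log2(intensity + 1), of the 10 antagonists in the 12 arrays, by sorted population. Points are arrays, bars are means with SD (n = 3), and the dashed line is the level of silent genes, 2.46; the CD34+ points of Sfrp1 lie between 8.61 and 8.80, above all other points of that gene.

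Calls among the 10 antagonists were few, and Sfrp1, Dkk3 and Sostdc1 made all of them. In Gata6+Itga6+ against CD34+ cells Sostdc1 was higher and Sfrp1 and Dkk3 were lower, 3 of 10 (4.59% of all genes: 2.4% higher, 2.18% lower). In Gata6+Itga6+ against remaining basal cells only Sostdc1 was called, higher, 1 of 10 (1.36% of all genes: 1.07% higher, 0.286% lower). In Gata6+Itga6- against Gata6+Itga6+ cells Sostdc1 alone was called, lower, 1 of 10 (3.18% of all genes: 1.17% higher, 2.01% lower). CD34+ against remaining basal cells gave 2 of 10, Sfrp1 and Dkk3, both higher (5% of all genes: 3.32% higher, 1.67% lower). The same 2 genes were lower in Gata6+Itga6- against CD34+ cells (7.96% of all genes: 3.22% higher, 4.74% lower), and Sfrp1 alone was lower in Gata6+Itga6- against remaining basal cells (5.11% of all genes: 2.96% higher, 2.15% lower). The median log2 change over the 10 was -0.10 in Gata6+Itga6+ against CD34+ cells, against 0.016 over all genes, and lay between -0.22 and 0.09 in the 6 comparisons. The comparisons share arrays, so their calls are not independent.

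Of the 68 single probe sets of the 10 genes, 8 were called between Gata6+Itga6+ and CD34+ cells (1.86% of all probe sets: 0.871% higher, 0.988% lower). There were 2 between Gata6+Itga6+ and remaining basal cells (0.528% of all probe sets: 0.44% higher, 0.0877% lower) and 3 between Gata6+Itga6- and Gata6+Itga6+ cells (0.933% of all probe sets: 0.265% higher, 0.668% lower). CD34+ and remaining basal cells differed in 7 (2.5% of all probe sets: 1.77% higher, 0.731% lower). Gata6+Itga6- and CD34+ cells differed in 11 (3.98% of all probe sets: 1.55% higher, 2.43% lower), and Gata6+Itga6- and remaining basal cells in 5 (2.38% of all probe sets: 1.37% higher, 1.01% lower).

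Sfrp1, which binds Wnt proteins through a Frizzled-like domain, had the largest differences of the 10 antagonists. In replicates 1 to 3 it measured 2.95, 1.97 and 1.71 in Gata6+Itga6- cells, 3.77, 3.85 and 2.57 in Gata6+Itga6+ cells, 8.62, 8.61 and 8.80 in CD34+ cells, and 4.79, 4.70 and 5.27 in remaining basal cells. The CD34+ arrays stood apart from the rest, and the remaining basal arrays overlapped neither Gata6+ population. Only the Gata6+ populations overlapped each other.

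Sfrp1 fell to 3.40 ± 0.72 in Gata6+Itga6+ cells, against 8.68 ± 0.11 in CD34+ cells (SD, n = 3), which is 38.8-fold lower (log2 change -5.28, SE 0.38, limma adjusted p = 2.0e-05). It was the gene with rank 6 among all changes in that direction. In Gata6+Itga6- cells, at 2.21 ± 0.65, its gene median was at least 74.2-fold lower than in CD34+ cells (adjusted p = 2.7e-06). The median was at least 5.49-fold lower than in remaining basal cells at 4.92 ± 0.31 (log2 change -2.71, adjusted p = 0.00176). Some single probe sets changed by less, as given below. CD34+ cells had 13.5-fold more Sfrp1 signal than remaining basal cells (log2 change 3.76, adjusted p = 0.000191). These 4 differences are larger than the spread between replicates.

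The other Sfrp1 differences were not called. Gata6+Itga6+ cells differed from remaining basal cells by -1.52 (95% interval -2.36 to -0.68, adjusted p = 0.108). This difference passed the test when only genes over the level of silent genes were tested (adjusted p = 0.0426) and after quantile normalization (log2 change -1.76, adjusted p = 0.0414). Gata6+Itga6- cells differed from Gata6+Itga6+ cells by -1.19 (interval -2.03 to -0.35, adjusted p = 0.163). This one passed without Gata6+Itga6+ replicate 3, the lowest of its group (-1.60, adjusted p = 0.0480), and with the mean of the probe sets in place of the median (-1.52, adjusted p = 0.0287) or with the brightest probe set (-4.86, adjusted p = 0.00948).

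The 5 Sfrp1 probe sets did not all show the same profile. Probe set 4388313 had 1.55, 1.35 and 1.37 in Gata6+Itga6- cells, 3.77, 3.89 and 3.10 in Gata6+Itga6+ cells, 9.05, 9.17 and 9.25 in CD34+ cells, and 4.995, 4.70 and 6.72 in remaining basal cells. Its populations did not overlap. Probe set 5322841 had 6.11, 2.49 and 1.89 in Gata6+Itga6- cells, 8.54, 8.34 and 8.21 in Gata6+Itga6+ cells, 10.71, 10.36 and 10.30 in CD34+ cells, and 9.47, 9.77 and 9.83 in remaining basal cells. On this probe set all Itga6+ populations were bright, and the Gata6+Itga6- cells fell by 4.86 on the log2 scale against Gata6+Itga6+ cells (adjusted p over all probe sets 0.0261; 0.0894 without Gata6+Itga6+ replicate 3). They fell by 6.19 against remaining basal cells (adjusted p = 0.00314). Taken alone as the gene's measure, 5322841 left the differences of Gata6+Itga6+ from CD34+ cells (-2.09, adjusted p = 0.292) and of CD34+ from remaining basal cells (0.76, adjusted p = 0.753) uncalled.

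Of the 5 Sfrp1 probe sets, 3 were called lower in Gata6+Itga6+ cells than in CD34+ cells, 5 lower in Gata6+Itga6- cells than in CD34+ cells, 3 higher in CD34+ than in remaining basal cells and 2 lower in Gata6+Itga6- cells than in remaining basal cells. In every one of the 5 the highest of the 12 values came from a CD34+ array. Gata6+Itga6- minus CD34+ cells ran from -7.74 (4388313) to -1.80 (4903034) on the log2 scale. Against remaining basal cells, Gata6+Itga6- cells changed by -1.34 on 4418699, -1.28 on 4970130 and -0.55 on 4903034, none called. The called changes there were -4.05 on 4388313 and -6.19 on 5322841. On 5322841, Gata6+Itga6- replicate 1 stood apart from the other arrays of its group, and the cause was not tested. In Gata6+Itga6- cells 4970130 averaged 3.68 and 5322841 averaged 3.50, over the probe set level of silent genes, 2.94. On 4970130 the Gata6+Itga6+ mean was 3.63, so the Gata6+ populations did not differ there (0.059, adjusted p = 0.991).

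**Figure D2:**
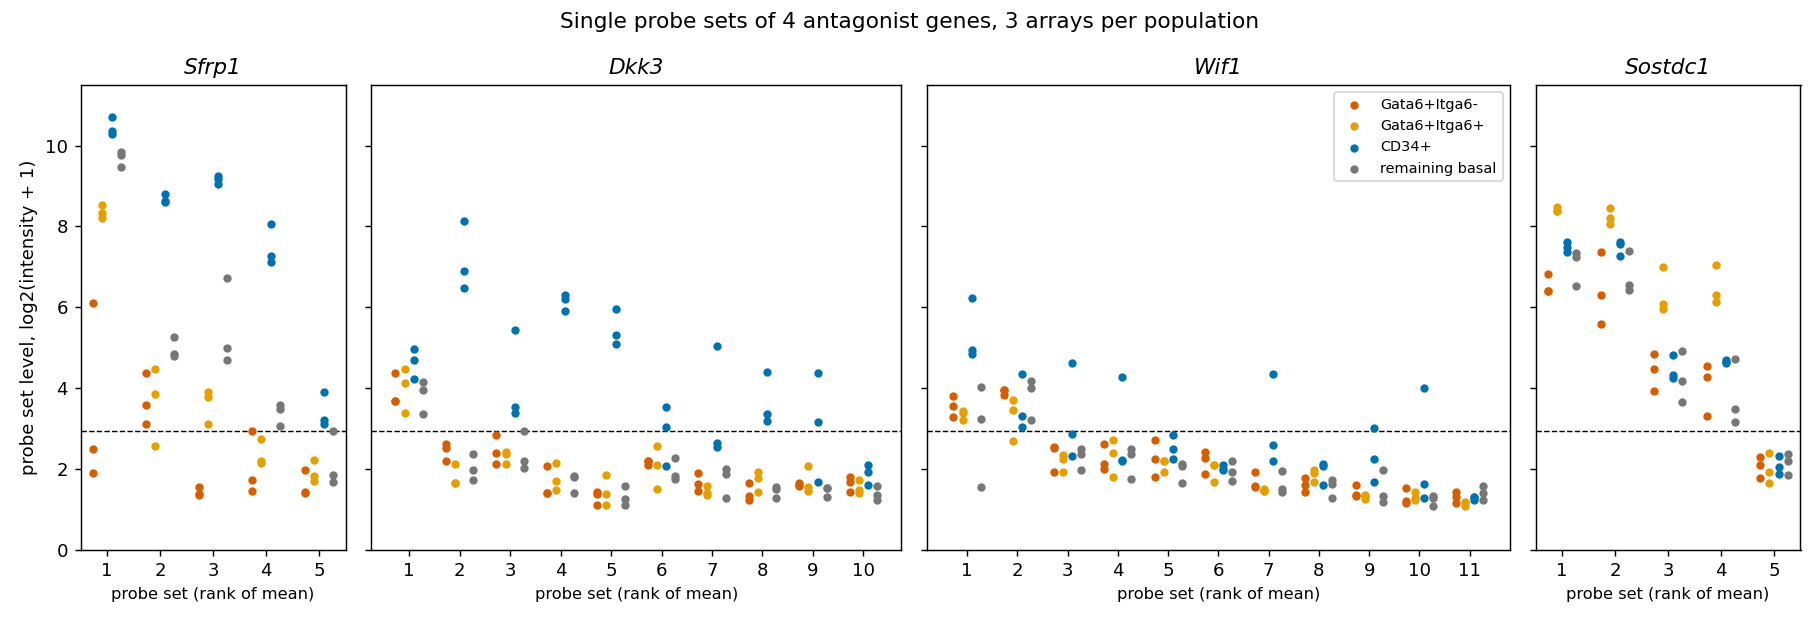
Level of single probe sets, log2(intensity + 1), of Sfrp1, Dkk3, Wif1 and Sostdc1, ordered by mean level over 12 arrays; each point is 1 array, coloured by population, and the dashed line is the probe set level of silent genes, 2.94. In Dkk3 the CD34+ points reach 8.12 while most other points stay under the line, and the first Sfrp1 probe set is bright in all Itga6+ populations.

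Dkk3, a member of the Dickkopf family that is not a typical Lrp6 blocker, had a gene median above the level of silent genes in CD34+ cells alone. In replicates 1 to 3 it measured 1.78, 1.84 and 1.73 in Gata6+Itga6- cells, 1.76, 1.75 and 1.56 in Gata6+Itga6+ cells, 3.44, 4.55 and 4.67 in CD34+ cells, and 1.69, 1.74 and 1.68 in remaining basal cells. CD34+ replicate 1 was the lowest of its group and still above all arrays of the other populations.

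Dkk3 averaged 1.78 ± 0.056 in Gata6+Itga6- cells, 1.69 ± 0.11 in Gata6+Itga6+ cells, 4.22 ± 0.68 in CD34+ cells and 1.70 ± 0.032 in remaining basal cells (SD, n = 3). Since 3 of these means were no brighter than silent genes, each of the 3 folds is at least 3.38. Dkk3 was lower in Gata6+Itga6+ cells than in CD34+ cells (log2 change -2.53, SE 0.26, adjusted p = 0.000286), lower in Gata6+Itga6- cells than in CD34+ cells (-2.44, adjusted p = 0.000181) and higher in CD34+ than in remaining basal cells (2.52, adjusted p = 0.000233). The other populations differed from each other by 0.09 at most, with 95% intervals within -0.59 to 0.67.

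The highest of the 12 values came from a CD34+ array in 10 of 10 Dkk3 probe sets, of which 8 were over the probe set level of silent genes in some population, and 4 of the 10 were called in each of these comparisons. Probe set 4741149 had 6.90, 8.12 and 6.48 in CD34+ cells, against 2.36, 1.73 and 1.98 in remaining basal cells (log2 change 5.15, adjusted p = 4.0e-05). Probe set 4692426 had 5.91, 6.20 and 6.30 in CD34+ cells, against 1.41, 1.79 and 1.82 in remaining basal cells (4.46, adjusted p = 7.1e-06). The probe set with the highest mean, 4721277, ran from 3.34 to 4.96 over all 12 arrays. With that one alone as the gene's measure Dkk3 was not called in any of these comparisons (adjusted p = 0.280 to 0.512).

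Sostdc1, also called Wise or ectodin, which dampens both Wnt and BMP signalling, was the one of the 3 called antagonists with its highest level in Gata6+Itga6+ cells. In replicates 1 to 3 it measured 4.84, 4.55 and 3.93 in Gata6+Itga6- cells, 6.31, 6.14 and 7.06 in Gata6+Itga6+ cells, 4.61, 4.70 and 4.81 in CD34+ cells, and 4.17, 3.66 and 4.92 in remaining basal cells. The Gata6+Itga6+ arrays lay above all others, and the other 3 populations overlapped.

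Sostdc1 was 4.17-fold lower in Gata6+Itga6- cells at 4.44 ± 0.47 than in Gata6+Itga6+ cells at 6.50 ± 0.49 (log2 change -2.06, SE 0.35, adjusted p = 0.0108), a call that held in all 23 alternatives run (highest adjusted p 0.0454). Gata6+Itga6+ cells had 3.47-fold more Sostdc1 signal than CD34+ cells at 4.71 ± 0.10 (1.79, adjusted p = 0.0146). This was not called without Gata6+Itga6+ replicate 3 (adjusted p = 0.0560) or CD34+ replicate 1 (0.0530), nor with the brightest probe set (0.92, 0.0752). Gata6+Itga6+ cells had 4.76-fold more Sostdc1 signal than remaining basal cells at 4.25 ± 0.63 (2.25, adjusted p = 0.0111). This was not called without remaining basal replicate 1 (0.0505), with array brightness as a covariate (1.80, 0.0758) or in a fit of only these populations (0.0903).

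The other 3 populations were not told apart by the gene level: CD34+ minus remaining basal cells was 0.46 (95% interval -0.31 to 1.23), Gata6+Itga6- minus CD34+ cells -0.27 (-1.03 to 0.50), and Gata6+Itga6- minus remaining basal cells 0.19 (-0.58 to 0.96). In 4 of 5 Sostdc1 probe sets the mean was higher in Gata6+Itga6+ cells than in each other population. The other one, 5149631, was under the probe set level of silent genes everywhere and had its lowest mean in Gata6+Itga6+ cells (1.99, against 2.05 to 2.14 elsewhere). Of the 5 probe sets, 1 was called higher in Gata6+Itga6+ than in CD34+ cells (0.871% of all probe sets). In 2 the Gata6+Itga6+ cells were called higher than remaining basal cells (0.44%), and in 2 the Gata6+Itga6- cells were called lower than Gata6+Itga6+ cells (0.668%). With 1 array left out these counts fell to 0, 0 and 1 at the lowest. Probe set 4699625 had 6.39, 6.82 and 6.39 in Gata6+Itga6- cells, 8.39, 8.39 and 8.48 in Gata6+Itga6+ cells, 7.49, 7.62 and 7.37 in CD34+ cells, and 7.24, 6.53 and 7.33 in remaining basal cells. On it, the brightest probe set of the gene, the Gata6+Itga6- arrays lay below all CD34+ arrays too (-0.96, adjusted p = 0.0415, called in 4 of 15 fits with another setting or 1 array left out), and the step from Gata6+Itga6+ cells was called in 15 of 15 (-1.88, adjusted p = 0.00377).

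**Figure D3:**
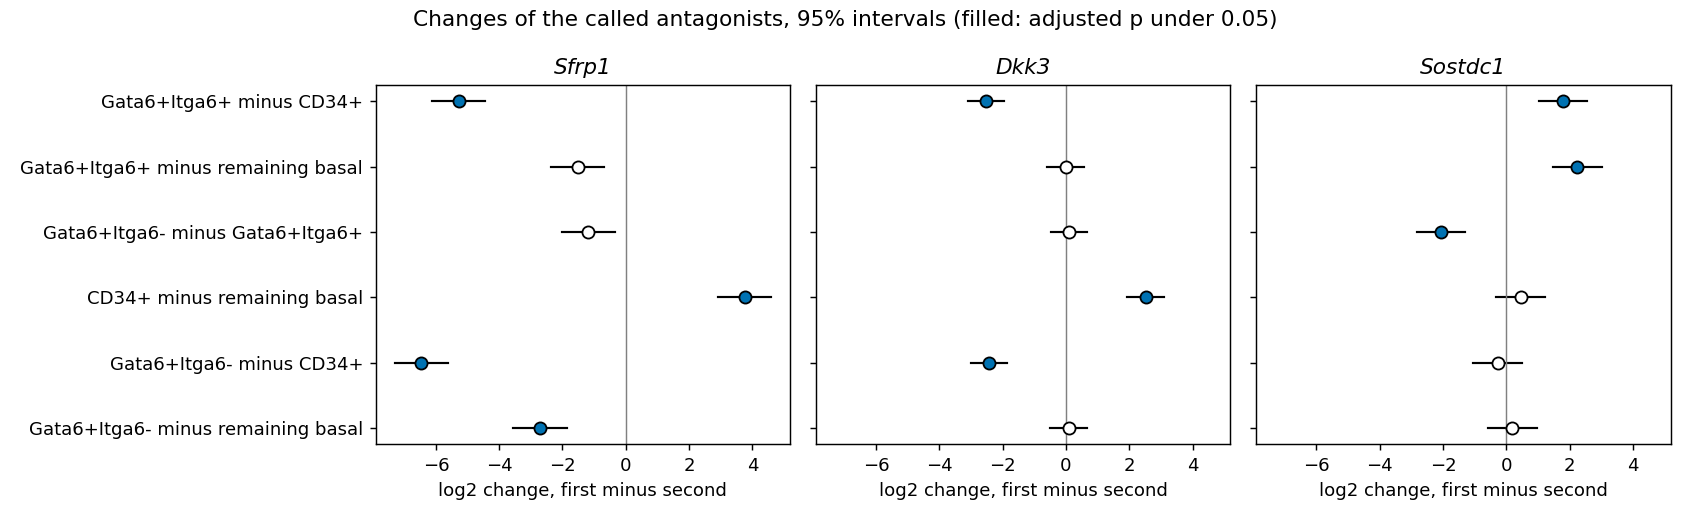
Log2 change between populations, first minus second, of Sfrp1, Dkk3 and Sostdc1, with 95% intervals; filled points passed an adjusted p of 0.05 and open points did not. Sfrp1 spans -6.47 to 3.76, Dkk3 differs only where CD34+ cells are compared, and Sostdc1 only where Gata6+Itga6+ cells are.

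The remaining 7 antagonists had dim gene medians, and over the 6 comparisons none of them was called by limma, while 6 of 42 tests had an unadjusted p under 0.05. The share of all genes at an unadjusted p under 0.05 was not counted, here or for the lists below. Wif1, a binder of Wnt proteins, lay at 1.87, 1.99 and 1.92 in Gata6+Itga6- cells, 2.09, 2.09 and 1.80 in Gata6+Itga6+ cells, 2.24, 2.19 and 2.59 in CD34+ cells, and 1.93, 1.92 and 1.55 in remaining basal cells. The CD34+ arrays were the highest, but no comparison was called (CD34+ minus remaining basal 0.54, adjusted p = 0.0707). Of its 11 probe sets, 4 were over the probe set level of silent genes in some population. The change had the sign of the gene median, with the higher mean in CD34+ cells, in 11 of 11 against Gata6+Itga6+ cells, 8 against Gata6+Itga6- cells and 9 against remaining basal cells. Probe set 4994115 had 3.81, 3.56 and 3.29 in Gata6+Itga6- cells, 3.37, 3.43 and 3.21 in Gata6+Itga6+ cells, 4.93, 6.23 and 4.84 in CD34+ cells, and 3.23, 4.02 and 1.55 in remaining basal cells (CD34+ minus remaining basal 2.41, adjusted p over all probe sets 0.0540). As the brightest probe set, taken alone as the gene level, it was called among all genes (adjusted p = 0.0311). With the mean of its probe sets as the gene level, Wif1 was called in CD34+ against remaining basal cells (0.74, adjusted p = 0.00423), and lower in Gata6+Itga6+ (-0.75, 0.00433) and Gata6+Itga6- cells (-0.61, 0.00933) than in CD34+ cells.

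Dkkl1, a Dickkopf-like protein known from the testis, measured 2.76, 2.29 and 1.98 in Gata6+Itga6- cells, 1.64, 1.69 and 1.82 in Gata6+Itga6+ cells, 1.78, 2.18 and 1.84 in CD34+ cells, and 2.03, 1.76 and 1.66 in remaining basal cells. Only 1 of its 5 probe sets was over the probe set level of silent genes anywhere. In 4 of the 5 the mean was higher in Gata6+Itga6- cells than in each other population, and in 5038664 it was 1.83 in Gata6+Itga6- cells and 1.88 in remaining basal cells. No comparison was called with the gene median, and with the mean of the probe sets Dkkl1 was called higher in Gata6+Itga6- cells than in Gata6+Itga6+ (0.74, adjusted p = 0.00630), CD34+ (0.69, 0.00366) and remaining basal cells (0.65, 0.00734). Probe set 5370171 had 2.76, 2.72 and 3.82 in Gata6+Itga6- cells, against 1.85, 1.76 and 1.87 in remaining basal cells (1.27, adjusted p = 0.0451, called in 2 of 15 other fits).

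Dkk1, the founding Lrp5 and Lrp6 blocker of the family, had gene levels of 1.70, 1.64 and 1.69 in Gata6+Itga6- cells. These lay below all other arrays, which ran from 1.76 to 2.19, with no gene call. Among its 8 probe sets, 4961571 had 3.77, 3.94 and 3.97 in Gata6+Itga6- cells, against 3.02, 3.13 and 2.92 in CD34+ cells (0.87, adjusted p = 0.0109, called in 15 of 15 other fits) and 3.31, 3.17 and 2.88 in remaining basal cells (0.77, adjusted p = 0.0317, called in 6 of 15). The Gata6+Itga6- arrays lay above all others on it, opposite to the gene median, while the other 7 probe sets gave no call. Sfrp2 ran from 1.81 to 2.50, Sfrp5 from 1.72 to 2.54, Frzb from 1.34 to 1.57 and Dkk2 from 1.82 to 2.32 over all arrays as gene medians, with no gene call. Single probe sets of 3 of these genes were brighter. Sfrp2 probe set 5384382 averaged 4.91 ± 0.17 in Gata6+Itga6-, 4.802 ± 0.054 in Gata6+Itga6+, 4.85 ± 0.52 in CD34+ and 5.08 ± 0.45 in remaining basal cells, with no call (adjusted p = 0.860 to 0.980). Frzb probe set 5009945 averaged 3.11 ± 0.33 in Gata6+Itga6-, 2.62 ± 0.50 in Gata6+Itga6+, 3.97 ± 0.47 in CD34+ and 3.48 ± 0.64 in remaining basal cells, with no call (lowest adjusted p 0.142). Sfrp5 probe set 5058345 averaged 3.70 ± 0.69 in Gata6+Itga6- cells and 2.55 to 2.69 in the other populations, with no call (lowest adjusted p 0.207). Sfrp2 probe set 5292649 was higher in Gata6+Itga6- cells than in remaining basal cells by 0.94 (adjusted p = 0.0482, called in 3 of 15 other fits). None of the 8 Dkk2 probe sets passed the probe set level of silent genes, 2.94, in any population, against 27 of the 68 probe sets of all 10 antagonists. The share over all probe sets was not counted.

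Of the 5 receptors that the antagonists bind, Lrp4, a binding partner of Sostdc1, was called most often. In replicates 1 to 3 it measured 3.22, 3.42 and 3.31 in Gata6+Itga6- cells, 4.44, 5.15 and 4.75 in Gata6+Itga6+ cells, 3.59, 3.17 and 3.04 in CD34+ cells, and 5.62, 5.54 and 5.59 in remaining basal cells. It was higher in Gata6+Itga6+ cells than in CD34+ cells (1.52, adjusted p = 0.000916), lower in Gata6+Itga6- cells than in Gata6+Itga6+ cells (-1.47, 0.00241) and lower in CD34+ (-2.32, 3.6e-05) and Gata6+Itga6- cells (-2.27, 5.1e-05) than in remaining basal cells. Gata6+Itga6+ minus remaining basal cells was -0.80 (adjusted p = 0.0767). Lrp6 was higher in CD34+ cells at 5.06 ± 0.38 than in remaining basal cells at 3.78 ± 0.44 (1.28, adjusted p = 0.0233). Lrp5, Kremen1 and Kremen2 were called in no comparison by limma, with 2 of 18 tests at an unadjusted p under 0.05. Their mean levels ran from 3.75 to 4.04, from 3.08 to 3.85 and from 2.38 to 2.48 over the populations.

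Among 16 other inhibitors and feedback genes of the pathway, 11 were over the level of silent genes in at least 1 population. Between Gata6+Itga6+ and CD34+ cells 3 were higher (Apcdd1, Axin2 and Nkd2) and 2 lower (Nkd1 and Shisa2), against 2.4% of all genes higher and 2.18% lower, with a median log2 change of 0.12 over the list and 0.016 over all genes. CD34+ against remaining basal cells gave 1 higher and 2 lower (3.32% and 1.67% of all genes), and Gata6+Itga6- against CD34+ cells 2 higher and 2 lower (3.22% and 4.74%). The other 3 comparisons gave 0 calls by limma, with 1, 1 and 3 genes at an unadjusted p under 0.05 in Gata6+Itga6+ against remaining basal, Gata6+Itga6- against Gata6+Itga6+ and Gata6+Itga6- against remaining basal cells. Apcdd1, a membrane inhibitor of Wnt signalling, averaged 5.21 ± 0.19 in Gata6+Itga6+ cells and 2.55 ± 0.28 in CD34+ cells (2.67, adjusted p = 0.00476). Axin2, a feedback inhibitor that Wnt signalling itself turns on, averaged 4.93 ± 0.23 in Gata6+Itga6+ cells and 3.52 ± 0.14 in CD34+ cells (1.41, adjusted p = 0.00476). Both were also lower in CD34+ than in remaining basal cells, where they averaged 4.77 ± 0.63 and 5.05 ± 0.31 (-2.22 and -1.53, adjusted p = 0.0115 and 0.00238). Both were higher in Gata6+Itga6- cells than in CD34+ cells (1.76 and 0.92, adjusted p = 0.0281 and 0.0291). Shisa2, of a family that keeps Frizzled receptors from the cell surface, was higher in CD34+ cells, at 4.28 ± 0.16, than in remaining basal cells at 2.86 ± 0.24 (1.42, adjusted p = 0.0140).

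Of 18 Wnt receptors, 6 were higher and 0 lower in CD34+ than in remaining basal cells, against 3.32% and 1.67% of all genes, with a median log2 change of 0.46 over the list and 0.015 over all genes. Gata6+Itga6+ against CD34+ cells gave 3 lower (2.18% of all genes), Gata6+Itga6+ against remaining basal cells 2 higher (1.07%) and Gata6+Itga6- against Gata6+Itga6+ cells 1 lower, Lgr6 (2.01%). Gata6+Itga6- against CD34+ cells gave 4 lower (4.74%) and Gata6+Itga6- against remaining basal cells 3 higher (2.96%). Lgr5, an R-spondin receptor of follicle stem cells, averaged 5.74 ± 0.12 in CD34+ cells and 1.70 ± 0.073 in remaining basal cells, at least 9.72-fold. Fzd3 was 12.8-fold higher in CD34+ cells at 6.39 ± 0.27 than in remaining basal cells at 2.71 ± 0.89, and Lgr4 9.72-fold at 6.13 ± 0.27 against 2.85 ± 0.34. Fzd7 was higher in Gata6+Itga6- (2.49-fold, adjusted p = 0.00328), Gata6+Itga6+ (2.30-fold, 0.0175) and CD34+ cells (2.08-fold, 0.0122) than in remaining basal cells. Of 19 Wnt ligands none was called between Gata6+Itga6+ and CD34+, between Gata6+Itga6- and Gata6+Itga6+ or between Gata6+Itga6- and CD34+ cells by limma (0, 2 and 2 at an unadjusted p under 0.05). Against remaining basal cells, 3 ligands fell in Gata6+Itga6- (Wnt3, Wnt5a and Wnt10a; 2.15% of all genes), 1 in Gata6+Itga6+ (Wnt5a; 0.286%) and 3 in CD34+ cells (Wnt5a, Wnt10a and Wnt16; 1.67%). Wnt5a was under the level of silent genes in all 4 populations. Wnt10a, for example, averaged 3.04 ± 0.18 in CD34+ cells and 3.75 ± 0.054 in remaining basal cells (-0.71, adjusted p = 0.0377).

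**Figure D4:**
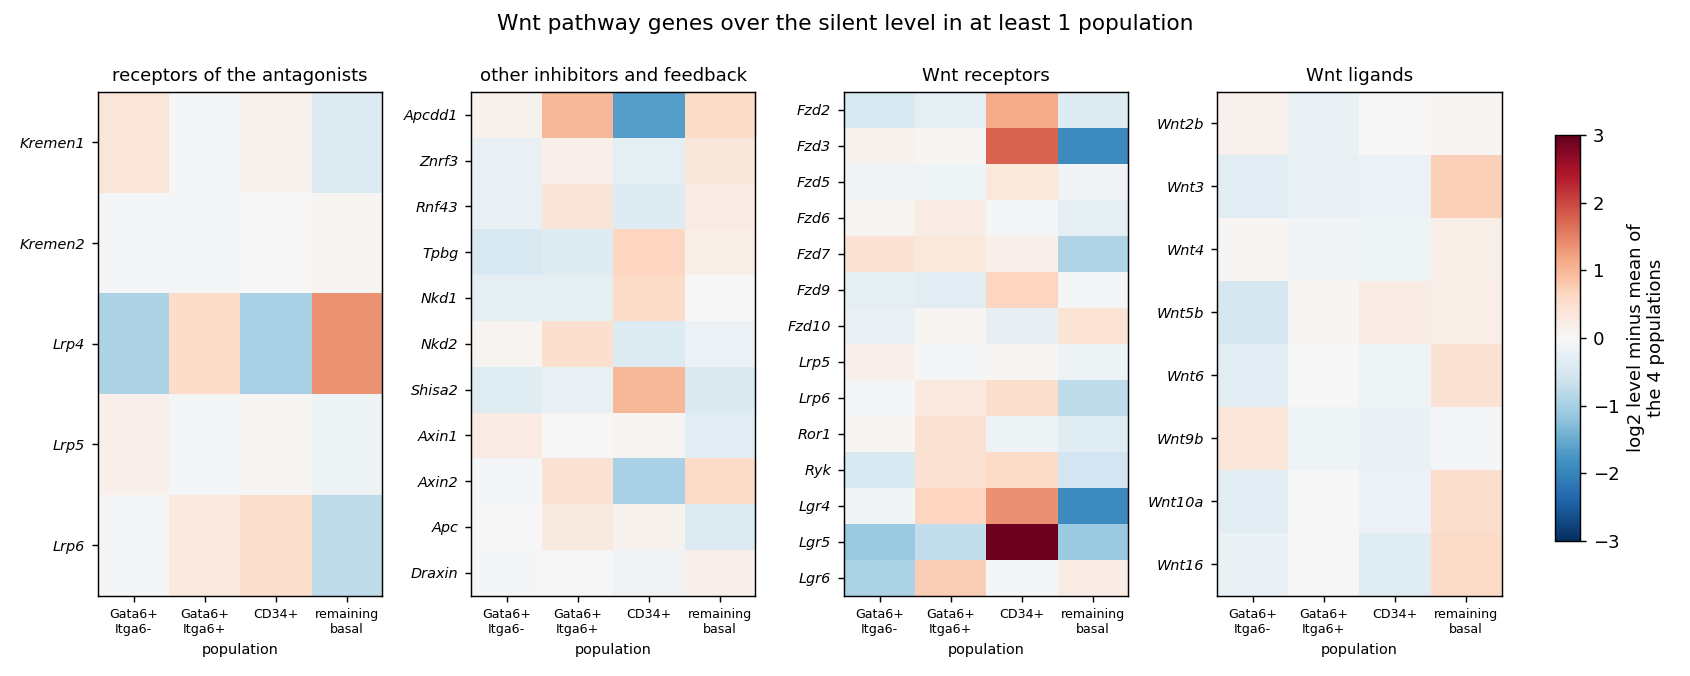
Mean log2 level in each sorted population minus the mean of the 4 populations, for the receptors, other inhibitors and ligands of the Wnt pathway (the 10 antagonists are not drawn) over the level of silent genes in at least 1 population; red is higher and blue lower. Of the genes drawn, Lgr5 is the reddest cell, with a level of 5.74 in CD34+ cells, and Apcdd1 and Axin2 are blue in the same column.

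The genes whose levels followed each called antagonist most closely over the 12 arrays, among 8962 genes, are given as a description, since the arrays share populations and processing. For Sfrp1 they were Bcam, a laminin receptor (r = 0.973), the collagen Col12a1 (r = 0.966) and the chemokine Cxcl14 (r = 0.963). Bcam averaged 3.06 in Gata6+Itga6-, 3.90 in Gata6+Itga6+, 5.64 in CD34+ and 4.23 in remaining basal cells, the same order as Sfrp1. For Dkk3 they were the sorting receptor Sorcs3 (r = 0.994), Strip2 (r = 0.991) and the metalloprotease Tll1 (r = 0.990). Sorcs3 averaged 4.76 in CD34+ cells and 1.72 to 1.82 in the other populations. For Sostdc1 they were the histone chaperone Rbbp7 (r = 0.962), the transcription factor Irx4 (r = 0.937) and Tmem252 (r = 0.921). Sfrp1 and Dkk3 correlated with each other at r = 0.874, and with Sostdc1 at -0.19 and -0.17.

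Markers of other cells were read beside these results, since Sfrp and Dkk genes are also known from dermal cells. Of 10 dermal fibroblast markers, 0 were over the level of silent genes in Gata6+Itga6-, 0 in Gata6+Itga6+, 3 in CD34+ (Col1a1 2.83, Col1a2 2.89 and Thy1 2.54) and 1 in remaining basal cells (Thy1 3.88). Their summed log2 levels ran from 17.8 to 18.3, from 17.3 to 17.9, from 19.3 to 19.7 and from 18.8 to 20.2 in the same order. Col3a1, Dcn and Lum were under the level of silent genes in CD34+ cells, at 1.82, 1.63 and 1.37. Of 8 dermal papilla markers, 0, 2, 1 and 1 were over it in that order, with sums of 13.4 to 14.8, 14.8 to 14.96, 16.3 to 17.0 and 14.9 to 15.9. Crabp1 was at 3.91 in CD34+ cells, where Sfrp1 and Dkk3 were high. Alpl was at 2.47 in Gata6+Itga6+ cells, and Rspo3 was at 2.69 in the same cells, where the Sostdc1 mean was highest, and at 3.20 in remaining basal cells, where it was lowest. Sox2, Corin and Vcan were under it everywhere. Of 7 immune markers, 2 were over it in Gata6+Itga6- cells (Cd3e 2.73 and Cd3g 2.48) and 0 elsewhere, with sums of 13.1 to 16.4 in Gata6+Itga6-, 12.5 to 13.7 in Gata6+Itga6+, 12.3 to 12.9 in CD34+ and 11.8 to 12.6 in remaining basal cells. Of 7 melanocyte markers, 2 were over it in Gata6+Itga6+ cells, 2 in CD34+ cells and 0 in the others. Schwann cell (1 to 2 of 3) and muscle or adipocyte markers (2 to 3 of 6) were over it in every population, and endothelial and Merkel cell markers in none. The part of these cells in the antagonist results was not tested.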

How the data were processed

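Expression was measured in 12 arrays of 4 sorted populations, 3 each. Per the labels' protocols, RNA was amplified, turned into biotin-labelled cDNA and hybridized. The authors deposited intensities of 235932 probe sets made with RMA in Affymetrix Power Tools on mm9, per the submitters' processing notes (versions not stated). No source gives the scale, which was taken as linear because array maxima reach 2172 to 2953. RMA makes the arrays more alike in overall distribution, which can hide a change common to most genes. The deposited arrays still differed, with upper quartiles from 12.2 to 17.8.

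Probe sets with several symbols (1684) or none (13043) were left out. From the deposited intensities, log2(value + 1) was fitted with limma 3.58.1 in R 4.3.3, 1 mean per population over all 12 arrays, with moderated variances (prior degrees of freedom 2.12 for genes, residual 8). The added 1 makes changes of dim genes smaller. The 6 pairs of populations were compared, with p-values adjusted over all genes or all probe sets. The procedure was tested on simulated data only for changes planted in CD34+ cells and read against remaining basal cells. That simulation had independent noise per gene and no differences in array brightness, so it does not stand in for these arrays. Array number limits the precision.

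All antagonists and their receptors are named, up to 4 called genes of each other pathway list per comparison, and the 3 genes most correlated with each called antagonist; single probe sets and other genes were named after their values were seen. The antagonists, lists, markers and rules were chosen with earlier results of these data known. Alternatives changed the pseudocount, gene summary, normalization, filter, covariates, variance model, samples in the fit and blocks. Promoter sequences come from RefSeq build GRCm38.p6 and probe sets were not placed on it.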

Additional observations from a re-analysis of the deposited data

How the results depend on the processing

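Each of the 15 log2 changes of Sfrp1, Dkk3 and Sostdc1 with a population over the level of silent genes was recomputed under 23 alternatives. Of these, 14 kept their direction under all 23, and 4 also kept their side of the threshold under all 23. Sostdc1 in Gata6+Itga6- minus remaining basal cells, 0.19 and not called, turned to -0.11 with the mean of probe sets, to -0.50 with the brightest probe set, and ran from -0.10 to 0.53 with 1 array left out (-0.0099 without Gata6+Itga6- replicate 1). The cause was not tested.

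Across all genes the calls rose in every comparison with the mean of probe sets and fell in every one with the brightest probe set. The number of antagonists called changed as follows, and calls over all genes under these settings are given below. With the brightest probe set alone it was 0 in Gata6+Itga6+ minus CD34+ cells (3 as reported), 2 in Gata6+Itga6- minus Gata6+Itga6+ (1 as reported), 1 in CD34+ minus remaining basal (2 as reported; Sfrp1 and Dkk3 were lost and Wif1 was called), 3 in Gata6+Itga6- minus CD34+ (2 as reported; Dkk3 was lost, Dkk1 and Sostdc1 were called) and 2 in Gata6+Itga6- minus remaining basal cells (1 as reported). With the mean of probe sets it was 4 in Gata6+Itga6+ minus CD34+ and 3 in CD34+ minus remaining basal cells (both with Wif1 added), 3 in Gata6+Itga6- minus Gata6+Itga6+, 4 in Gata6+Itga6- minus CD34+ and 2 in Gata6+Itga6- minus remaining basal cells. Gata6+Itga6+ minus remaining basal cells (1 as reported) gave 2 when dim genes were left out and 2 after quantile normalization, but 0 with array brightness as covariate and 0 in a fit of only these populations. Calls with 1 array left out ran from 2 to 3 in Gata6+Itga6+ minus CD34+, from 0 (without remaining basal replicate 1) to 1 in Gata6+Itga6+ minus remaining basal and from 1 to 2 (without Gata6+Itga6+ replicate 3) in Gata6+Itga6- minus Gata6+Itga6+ cells, and stayed at 2, 2 and 1 in the other comparisons. Over all genes, calls with 1 array left out ran from 567 to 874, from 131 to 343 and from 285 to 626 in the first 3 of these comparisons.

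Over the Wnt pathway lists, calls came to 4 (10 as reported) and 6 (13 as reported) with the brightest probe set in Gata6+Itga6+ and in Gata6+Itga6- minus CD34+ cells, 2 (4 as reported) with the brightness covariate in Gata6+Itga6+ minus remaining basal and in Gata6+Itga6- minus Gata6+Itga6+ cells, and 2 in the last with a pseudocount of 16; leaving out arrays was not run for these lists. Antagonist probe sets called came to 4 with quantile normalization and 0 with the replicate block in Gata6+Itga6+ minus remaining basal (2 as reported), 6 with quantile normalization in Gata6+Itga6- minus Gata6+Itga6+ (3 as reported), and 3 with a pseudocount of 16 and 2 with the replicate block in Gata6+Itga6- minus remaining basal cells (5 as reported). That block on probe sets was added after the data were seen. Calls over all probe sets were not counted under these settings. With 1 array left out they ran from 7 to 11, 0 to 3, 1 to 5, 7 to 8, 9 to 13 and 2 to 4 in Gata6+Itga6+ minus CD34+, Gata6+Itga6+ minus remaining basal, Gata6+Itga6- minus Gata6+Itga6+, CD34+ minus remaining basal, Gata6+Itga6- minus CD34+ and Gata6+Itga6- minus remaining basal cells.

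Deviations of same-numbered arrays correlated at -0.11 to 0.198. No baseline of differently numbered arrays was set beside them, so these values cannot decide whether replicate numbers pair the arrays. With the replicate block no count of antagonists changed at gene level, and the Sostdc1 adjusted p-values were 0.0260 in Gata6+Itga6+ minus CD34+, 0.0246 in Gata6+Itga6+ minus remaining basal and 0.0213 in Gata6+Itga6- minus Gata6+Itga6+ cells. Over all genes, the mean of probe sets called 1300 against 819, 454 against 242, 995 against 567, 1513 against 892, 2159 against 1421 and 1403 against 913, in the same order. The brightest probe set called 503, 191, 398, 685, 1163 and 858 in that order. Gata6+Itga6+ minus remaining basal cells had 151 with a pseudocount of 16, 128 with the brightness covariate and 110 in a fit of only these populations. The covariate gave 359 in Gata6+Itga6- minus Gata6+Itga6+, and the fit of only these populations 571 in CD34+ minus remaining basal cells.

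The number of arrays limits precision, and 27 of the 68 antagonist probe sets were over the probe set level of silent genes in some population. How many of all probe sets were over it was not counted.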

Other observations

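Nuclear partners and known target genes of the Wnt pathway were also read, 15 of 16 listed. Between Gata6+Itga6- and CD34+ cells 2 were higher and 6 lower (3.22% and 4.74% of all genes). Between Gata6+Itga6- and Gata6+Itga6+ cells 0 were higher and 2 lower (1.17% and 2.01%). Gata6+Itga6+ against CD34+ cells gave 1 higher and 3 lower (2.4% and 2.18%). Against remaining basal cells, Gata6+Itga6+ gave 1 and 0 (1.07% and 0.286%), CD34+ 2 and 1 (3.32% and 1.67%) and Gata6+Itga6- 2 and 2 (2.96% and 2.15%). Axin2, Nkd1 and Lgr5 are also in the inhibitor or receptor lists above, so their calls count in both. The cell cycle gene Ccnd1 averaged 3.27 ± 0.23 in Gata6+Itga6- cells, 5.06 ± 0.56 in Gata6+Itga6+ cells, 5.38 ± 0.40 in CD34+ cells and 5.14 ± 0.49 in remaining basal cells (SD, n = 3), and was lower in Gata6+Itga6- cells against each (limma log2 changes -1.78, -2.10 and -1.86, adjusted p = 0.0167, 0.00233 and 0.00751). The growth regulator Myc, at 4.18 ± 0.55 in Gata6+Itga6- cells, was also lower there than in Gata6+Itga6+ cells at 6.32 ± 0.30 (-2.14, adjusted p = 0.00930), CD34+ cells (-1.42, 0.0321) and remaining basal cells (-1.69, 0.0186). Krt5, a basal keratin, averaged 6.67 in Gata6+Itga6- cells and 9.17 to 9.54 in the others; the part of such markers in these results was not tested.

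Tcf7l2, a TCF/LEF factor, averaged 6.49 ± 0.31 in CD34+ cells and 4.39 ± 0.70 in remaining basal cells (2.10, adjusted p = 0.00200), and was lower in Gata6+Itga6+ cells at 5.05 ± 0.10 (-1.44, 0.0199) and in Gata6+Itga6- cells at 4.58 ± 0.18 (-1.91, 0.00232) than in CD34+ cells. Ctnnb1, which encodes beta-catenin, was higher in Gata6+Itga6+ cells (1.17, adjusted p = 0.0498) and Gata6+Itga6- cells (1.21, 0.0164) than in remaining basal cells. The first of these calls lay close to the threshold of 0.05. In that comparison, calls over all genes came to 128 with array brightness as a covariate, against 242 as reported. Cd44, a surface receptor and known target, was higher in Gata6+Itga6- cells at 7.75 ± 0.081 than in CD34+ cells at 6.94 ± 0.25 and remaining basal cells at 6.94 ± 0.34 (0.81 in both, adjusted p = 0.0185 and 0.0259).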
